A study of Mus musculus with 2 samples.

Results

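The snRNA genes detected in both libraries of the series were 36 of the 1383 genes with an snRNA transcript in the annotation, and 36 of 55536 annotated genes in all. They were chosen by their level: a gene counted as detected when it had at least 1 TPM (a level scaled by effective length and by the total of the library) in both libraries of the deposited gene tables. The levels below are therefore a description of genes picked by those levels, and carry no test. Total RNA depleted of ribosomal RNA had been sequenced from the nucleoplasmic fraction (called nucleus or nuclear in other label fields) of primary bone-marrow-derived macrophages (BMDM) from C57BL/6J mice, which had received Lipid A, the part of bacterial lipopolysaccharide that Toll-like receptor 4 senses, at 100 ng/ml for 10 min. The series holds 2 libraries of this 1 group and no untreated cells. Replicate 1 was made from 1 µg of RNA and replicate 2 from 500 ng, and the labels give both the same donor identifier without saying whether the cultures came from separate animals, so the spread between them may be partly technical. The labels print a size range of 250-400 for both libraries with no unit, and all snRNAs described below are shorter than that number of nucleotides. No comparison of conditions can be made, and with 1 library on each side the differences between replicate 1 and replicate 2 have no p-value.

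The small nuclear RNAs (snRNAs) are short, abundant, non-coding RNAs that form the core of the spliceosome, the machine that removes introns from pre-mRNA in the nucleus. U1 base-pairs with the 5′ splice site and U2 with the branch point of most introns, while U12 pairs with the branch point of a rare class of introns removed by the minor spliceosome. Most of them carry a site bound by a ring of Sm proteins, and their genes lie in multi-copy families, often as identical copies, so that a short read can seldom be assigned to 1 gene.

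The gene tables held 19153465 expected counts over annotated genes in replicate 1 and 11622346 in replicate 2. The macrophage receptor gene Csf1r stood at 532 TPM in replicate 1, with 505 TPM in replicate 2, Lyz2, which encodes lysozyme, at 2309 and 1215 TPM, and the nuclear long non-coding RNA Malat1 at 19912 and 30438 TPM. A second set of deposited tables, called the second quantification here, held 26330795 counts in replicate 1 and 20758249 in replicate 2.

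The label of spliceosomal snRNA was checked by aligning each member to the snRNAs that the annotation names by class. Of the 36 genes, 29 were at least 90% identical to a named gene and 7 were not. That limit was chosen after the sequences had been seen. The 17 genes near Rnu1a1 or the Rnu1b genes, which encode U1, were 97.6% to 100% identical to a named gene and formed 7 distinct sequences. The 11 genes near Rnu2-10, which encodes U2, were 95.3% to 100% identical to it and also formed 7 distinct sequences. Rnu12, which encodes U12, was a member on its own. A pair of 141-nucleotide genes, Gm24265 and Gm24407, was at most 52.4% identical to any named snRNA, and 5 divergent genes were 61.6% to 73.2% identical. The named genes were those of U1, U2, U5, U6, U7, U11 and U12, with no U4 gene among them. A gene of a class without a named gene would thus also have a low identity here. The annotation used here gives no class for these 7, and none is given to them below.

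The sequences of the named members and of Gm24265 show what the classes share. They are the annotated GENCODE M21 transcripts, written 5′ to 3′ in DNA letters, and the capitals mark short motifs: in Rnu1a1 ACTTACCTG, the stretch that pairs with the 5′ splice site, in Rnu2-10 GTAGTA, the stretch that pairs with the branch point, in Rnu12 AAGGAA, the stretch that pairs with the branch point of minor introns, and in each of them and in Gm24265 ATTTNTG, a form of the Sm site. Coordinates are in the GRCm38 (mm10) build: Rnu1a1 at chr11:87422867-87423030 on the plus strand, Rnu2-10 at chr11:101658238-101658428 on the plus strand, Rnu12 at chr15:83149644-83149794 on the plus strand and Gm24265 at chr5:115489459-115489599 on the plus strand.
Rnu1a1: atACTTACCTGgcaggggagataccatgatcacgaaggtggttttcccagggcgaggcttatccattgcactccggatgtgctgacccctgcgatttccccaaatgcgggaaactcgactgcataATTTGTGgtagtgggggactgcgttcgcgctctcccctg
Rnu2-10: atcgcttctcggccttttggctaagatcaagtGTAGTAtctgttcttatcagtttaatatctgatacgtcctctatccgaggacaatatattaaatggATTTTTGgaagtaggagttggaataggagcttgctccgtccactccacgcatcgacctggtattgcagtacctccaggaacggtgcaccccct
Rnu12: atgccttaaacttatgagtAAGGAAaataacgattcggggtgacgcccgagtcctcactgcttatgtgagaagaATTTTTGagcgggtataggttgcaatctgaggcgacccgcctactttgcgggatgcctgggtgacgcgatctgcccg
Gm24265: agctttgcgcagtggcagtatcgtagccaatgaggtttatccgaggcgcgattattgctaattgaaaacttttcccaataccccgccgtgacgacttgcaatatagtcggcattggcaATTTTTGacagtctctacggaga

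Both strands of all 1383 snRNA transcripts were searched for these motifs. ACTTACCTG was present in all 17 Rnu1 sequences and in no other member, against 3.98% of all snRNA genes, and it was found on the reverse strand of none. GTAGTA was present in all 11 Rnu2-10 sequences and in 1 divergent gene, against 3.69% of all snRNA genes and 1.16% on the reverse strand. ATTTNTG was present in 33 of the 36 members, against 20.5% of all snRNA genes and 12.7% on the reverse strand. The 3 members without it, Gm24041, Gm25153 and Gm23887, were all divergent genes. AAGGAA was present in Rnu12 and in Gm23887, against 2.46% of all snRNA genes and 2.17% on the reverse strand. None of the 4 motifs overlaps another in the sequences printed here, and a match is a description of letters only.

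The 36 genes carried 22 distinct sequences. Of these, 6 were each shared by 2 to 7 genes and together covered 20 genes, and 16 belonged to 1 gene each. Rnu1a1 had 6 identical copies (Gm22068, Gm22317, Gm22634, Gm23804, Gm25679 and Gm26444), and Rnu2-10 had 3 (Gm23849, Gm23971 and Gm24950). Rnu1b6 was identical to Gm24830 and Gm26232, Rnu1b1 to Rnu1b2, Gm22614 to Gm25890, and Gm23444 to Gm23472. No member had an identical copy among the undetected snRNA genes. Over the whole annotation, 96 of the 1383 snRNA genes, or 6.94%, shared their sequence with another.

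Several of the distinct sequences differ by a few bases, and these differences decide what can be told apart. Each sequence below is printed with the bases that differ from its comparison sequence in capitals. Positions are counted from 1 at the 5′ end of the comparison sequence, whose base is given first. Gm22513 (chr12:54696782-54696945, plus strand) differs from Rnu1a1 by T60C. Gm25890 (chr3:96486555-96486719, minus strand) differs from Rnu1a1 by 5 substitutions and 1 inserted base. Gm23472 (chr1:72236946-72237136, plus strand) differs from Rnu2-10 by G109C. Gm24497 (chr1:72244213-72244403, plus strand) differs from Rnu2-10 by G109C and C186A, and so from Gm23472 by C186A alone, a base 5 positions before its 3′ end. Gm25939 (chr1:72255008-72255198, plus strand) differs from Rnu2-10 by T69C, C78T and G109C. Gm24407 (chr5:115490254-115490394, plus strand) differs from Gm24265 by G88A and C99A.
Gm22513: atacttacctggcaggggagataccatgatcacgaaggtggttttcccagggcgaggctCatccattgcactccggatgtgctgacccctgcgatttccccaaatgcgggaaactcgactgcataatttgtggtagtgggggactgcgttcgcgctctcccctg
Gm25890: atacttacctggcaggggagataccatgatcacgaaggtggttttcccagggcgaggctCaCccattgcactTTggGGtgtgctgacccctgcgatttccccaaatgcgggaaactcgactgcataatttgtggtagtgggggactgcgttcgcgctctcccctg
Gm23472: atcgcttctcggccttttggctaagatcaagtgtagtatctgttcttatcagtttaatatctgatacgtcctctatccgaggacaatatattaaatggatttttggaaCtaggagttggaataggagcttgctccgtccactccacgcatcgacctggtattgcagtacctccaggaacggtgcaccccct
Gm24497: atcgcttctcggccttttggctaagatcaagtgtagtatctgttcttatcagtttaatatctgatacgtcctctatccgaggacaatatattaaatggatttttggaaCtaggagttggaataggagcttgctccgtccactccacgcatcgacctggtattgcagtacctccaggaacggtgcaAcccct
Gm25939: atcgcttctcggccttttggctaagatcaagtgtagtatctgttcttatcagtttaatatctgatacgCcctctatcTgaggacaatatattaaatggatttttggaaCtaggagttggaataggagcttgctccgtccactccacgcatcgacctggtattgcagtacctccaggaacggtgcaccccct
Gm24407: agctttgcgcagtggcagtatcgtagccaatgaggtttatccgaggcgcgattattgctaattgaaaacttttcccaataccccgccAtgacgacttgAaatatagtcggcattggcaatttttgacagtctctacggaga

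The members lay mostly in clusters of their own class: 27 of the 36 were in 6 clusters of 2 or more genes. The share over all snRNA genes is not given here, so clustering is not shown to be particular to the members. On chromosome 12, 7 Rnu1 genes (Gm22513, Gm24305 and 5 copies of Rnu1a1) lay within 41.8 kb. On chromosome 3, 7 further Rnu1 genes, the Rnu1b genes among them, lay within 160.5 kb. Rnu1a1 and Gm22068 lay 4.01 kb from end to end in an intron of Tex14 on chromosome 11, and Tex14 itself had 0.04 and 0.02 TPM in replicates 1 and 2. Of the Rnu2-10 sequences, 5 genes (Rnu2-10, its 3 copies and Gm26316) lay within 53.6 kb on chromosome 11, and 4 (Gm25360, Gm23472, Gm24497 and Gm25939) within 29.0 kb on chromosome 1. The identical genes Gm23444 and Gm23472 were on different chromosomes, 11 and 1. Gm24265 and Gm24407 lay within 0.936 kb on chromosome 5.

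Together the 36 genes held 141562 TPM in replicate 1 and 223868 TPM in replicate 2, that is 14.2% and 22.4% of all TPM over annotated genes (18.3 ± 5.81%, SD, n = 2). The same genes held only 33326 and 34717 expected counts, or 0.174% and 0.299% of all counts (0.236 ± 0.0882%, SD, n = 2). In bulk RNA, fewer nuclei with an snRNA and less of it per nucleus cannot be told apart. The levels of single genes ran from 6.91 to 38818 TPM. U1 and U2 sequences made up nearly the whole sum: Rnu1 sequences held 66298 TPM in replicate 1, against 146687 TPM in replicate 2, and Rnu2-10 sequences held 68075 and 73459 TPM. The 141-nucleotide pair held 6500.5 and 3313 TPM, Rnu12 held 588 and 126 TPM, and the 5 divergent genes together held 99.9 and 282 TPM.

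**Figure D1:**
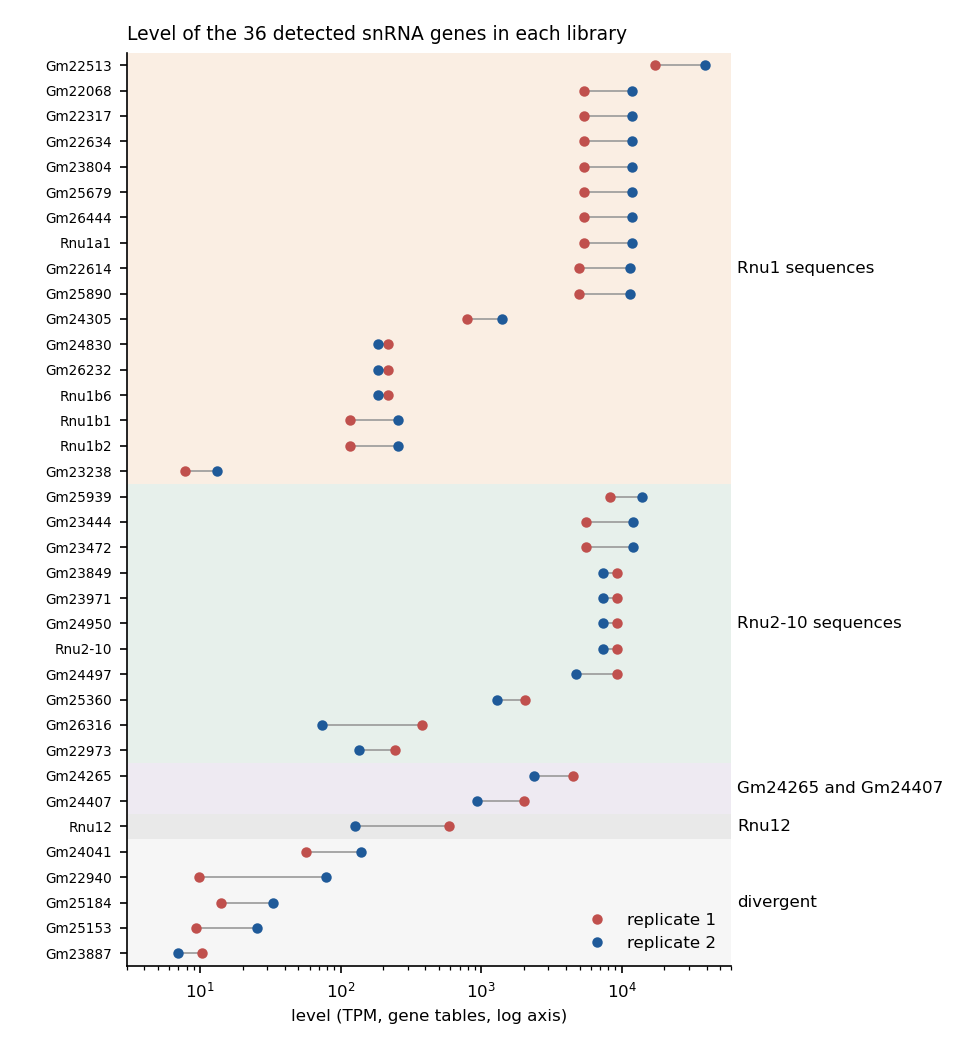
Level of each of the 36 detected snRNA genes in TPM (log axis) in replicate 1 (red) and replicate 2 (blue), with genes grouped by sequence class and a grey line joining the values of a gene. Identical copies share the same values, most genes of the Rnu1 group stand higher in replicate 2, and the 141-nucleotide pair and Rnu12 stand higher in replicate 1.

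Among the U1 genes most of the level lay in a few sequences. Rnu1a1 and its 6 copies summed to 37497 TPM in replicate 1, against 82580 TPM in replicate 2, the highest sum of any distinct sequence in the gene tables. They summed to 3009.6 and 9704 TPM in the second quantification, and the group of Rnu2-10 to 6089.8 and 6846 TPM, which was the higher in replicate 1. Gm22513, 1 base away from them, had 17239 and 38818 TPM. It was the highest of all 36 as a gene, while the Rnu1a1 sum was divided over 7 genes at 5357 and 11797 TPM each. As a sequence it was also below the group of Rnu2-10 in replicate 1, but not in replicate 2. Gm22614 and Gm25890 together had 9876 and 22795 TPM. All of these were higher in replicate 2.

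The remaining U1 genes were far lower. Gm24305, which differs from Rnu1a1 by A26G, had 792 TPM in replicate 1 and 1412 TPM in replicate 2. The Rnu1b genes are known in mouse as U1 variants of embryonic tissues: Rnu1b6 and its 2 copies summed to 655 and 555 TPM, and Rnu1b1 with Rnu1b2 to 231 and 514 TPM. The sequence of Rnu1b1 and Rnu1b2 is 1 base (C33T) from that of Gm25890 and its copy Gm22614, which is 6 edits from Rnu1a1. These 2 genes, nearest to the Rnu1b genes by sequence, summed to 9876 and 22795 TPM. The low levels thus hold for the named Rnu1b genes and their identical copies, not for all sequences near them. Gm23238, which differs from Rnu1a1 by G12A, A23T, C153T and C160A, had 7.73 and 13.1 TPM on 1.14 and 1.44 counts.

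Among the U2 genes, Rnu2-10 and its 3 copies summed to 36810 TPM in replicate 1, against 29401 TPM in replicate 2. Gm23444 with Gm23472 had 11082 and 23948 TPM, Gm25939 had 8253 and 13908 TPM, and Gm24497 had 9252 and 4692 TPM. By the deposited TPM, the order of these 3 sequences was thus not the same in the libraries. By the deposited posterior mean, Gm25939 was above Gm24497 in both (7846 against 7080, and 12860 against 6836 TPM). Gm24497 and Gm23472 differ only by the base near the 3′ end shown above. Lower U2 sequences were Gm25360 with 2057 and 1300.2 TPM, Gm26316 with 379 and 74.0 TPM, and Gm22973 with 241 and 136 TPM. Gm26316 is 1 base (C170T) from Rnu2-10.

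Gm24265 had 4473 TPM in replicate 1 and 2378 TPM in replicate 2, on 225 and 89 counts, and Gm24407 had 2028 and 935 TPM on 102 and 35 counts. Both were higher in replicate 1, and Gm24265 was the higher of the pair in both libraries. Rnu12 had 588 TPM on 50 counts in replicate 1 (95% Poisson interval 37.1 to 65.9 counts) and 126 TPM on 8 counts in replicate 2 (3.45 to 15.8 counts). Such intervals cover counting error only, because reads that carry no molecular identifiers may be copies of 1 molecule.

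Per effective length, U2 and U1 sequences stood in a ratio of 1.03 in replicate 1 and 0.501 in replicate 2 by the TPM of the gene tables, and of 2.00 and 0.874 by the TPM of the second quantification. By counts, which are not scaled for length, the ratio was 2.36 in replicate 1 and 1.14 in replicate 2, and 2.73 and 1.25 in the second quantification. The ratio was higher in replicate 1 by all 4 measures. Whether U2 or U1 was the higher in replicate 2 was not the same for TPM and counts.

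**Figure D2:**
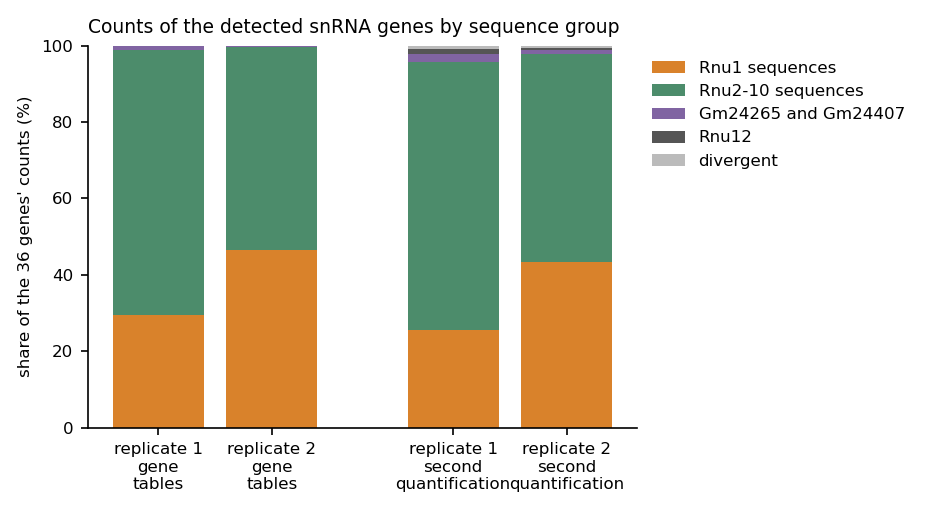
Share of the 36 genes' counts held by each sequence group (percent, stacked bars) in replicate 1 and replicate 2, for the gene tables on the left and the second quantification on the right. Rnu1 sequences held 29.4% of the counts in replicate 1 and 46.5% in replicate 2 in the gene tables, and 25.7% and 43.4% in the second quantification.

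Identical copies had equal values. In all 6 shared sequences, the TPM of the gene tables and the counts of the second quantification were equal between the copies to within 1e-06 in each library. The deposited intervals around the posterior mean showed what this division leaves unknown. For Rnu1a1 the interval ran from 363 to 9232 TPM in replicate 1 and from 282 to 27750 TPM in replicate 2, while for Gm22513 it ran from 15771 to 17032 TPM and from 34857 to 36940 TPM. The deposited TPM of Gm22513 lies above its own interval in both libraries, since the interval surrounds the posterior mean.

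Over the 20 genes with an identical copy, the upper bound was a median of 49.1 times the lower bound in replicate 1 and 173 times in replicate 2. Over the 10 genes with a sequence of their own and a mean of at least 10 counts, it was 1.50 and 1.74 times. Gm24497 had the widest of these intervals in both libraries, with 3069 to 12539 TPM in replicate 1 and 1029 to 13322 TPM in replicate 2. Levels of single copies are therefore uncertain, and the libraries are compared below both by gene and by sums over identical copies.

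**Figure D3:**
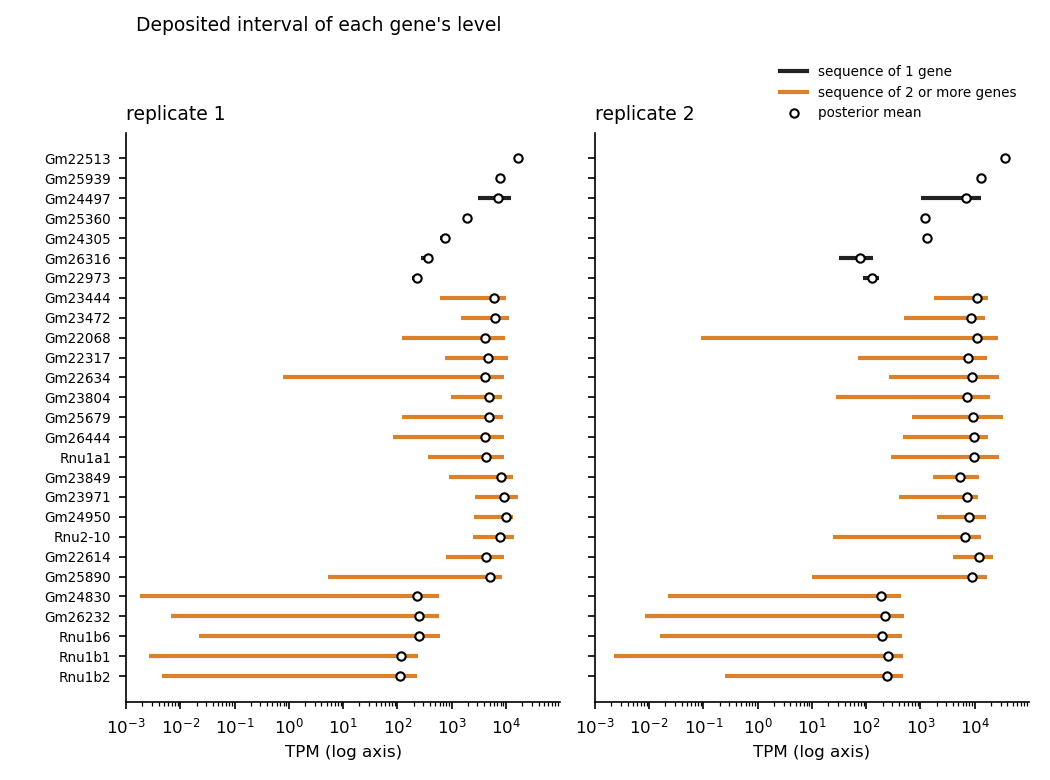
Deposited interval (bar) and posterior mean (open circle) of the level in TPM (log axis) of the Rnu1 and Rnu2-10 genes apart from Gm23238, in replicate 1 on the left and replicate 2 on the right, black for sequences of 1 gene and orange for sequences of 2 or more. The intervals of genes with identical copies are wide, while those of Gm22513 and Gm25939 are hidden behind their circles.

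The libraries were compared on counts scaled with edgeR's TMM factors, as log2 of replicate 1 over replicate 2 with a pseudocount of 1, for genes with a mean of at least 10 counts. Of the 36 members, 30 had that many counts. Among them 18 were more than 2-fold apart, against a background of 5.15% of the 15425 genes compared. Of these, 2 were higher in replicate 1, against a background of 3.47%, and 16 were higher in replicate 2, against 1.68%. The median over the 30 members was -1.11, while the median over all genes compared was 0.00.

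Counting each distinct sequence once changed the median and the split of directions, because 20 genes repeat the values of 6 sequences. The share more than 2-fold apart stayed similar. Of 16 distinct sequences with a mean of at least 10 counts summed over their copies, 9 were more than 2-fold apart. The background by gene was 5.15%. Of the 9, 2 were higher in replicate 1 and 7 higher in replicate 2. Over all 16, 8 were higher in replicate 1 and 8 in replicate 2, and the median was -0.04. The counting by sequence was added after the data had been seen.

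The U1 sequences were mostly lower in replicate 1. Their summed counts were 512 CPM (counts scaled to the library total alone) in replicate 1 and 1389 CPM in replicate 2, a log2 difference of -1.47. The Rnu1a1 group was at -1.46, Gm22513 at -1.50, the group of Gm22614 and Gm25890 at -1.53, the group of Rnu1b1 and Rnu1b2 at -1.45 and Gm24305 at -1.15. The group of Rnu1b6 stood apart at -0.08, with 104 counts in replicate 1 and 65.3 in replicate 2. In the second quantification the summed U1 difference was -1.42 and that of the Rnu1b6 group was 0.68.

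The U2 sequences differed in both directions. Their sum was 1208 CPM in replicate 1 and 1585 CPM in replicate 2, a log2 difference of -0.42. The group of Rnu2-10 was nearly level between the libraries at 0.01, with 653 and 634 CPM. The group of Gm23444 and Gm23472 was at -1.42 and Gm25939 at -1.06, while Gm25360 was at 0.35, Gm22973 at 0.51, Gm24497 at 0.67 and Gm26316 at 2.00. Gm26316 had 129 counts in replicate 1 and 18.6 in replicate 2, and its difference was 2.03 in the second quantification. For the group of Gm23444 and Gm23472 the second quantification gave -0.80, less than 2-fold. Gm24497, 1 base from that group, was at 0.34 there. The posterior mean of Gm24497 was nearly level between the libraries (7080 and 6836 TPM), unlike its deposited TPM (9252 and 4692). Its counts of 3144 and 1176 had deposited SDs of 936 and 1036. Sums over identical copies do not settle how reads were divided between Gm24497 and Gm23472, and that division was not tested.

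The 141-nucleotide pair and Rnu12 were higher in replicate 1. Gm24265 was at 0.58 and Gm24407 at 0.78 on the log2 scale, and Rnu12 was at 1.80. In the second quantification Gm24265 was at 0.17, Gm24407 at 0.81 and Rnu12 at 0.57. Over the 16 sequences, 15 kept the sign of their difference in the second quantification, the exception being the group of Rnu1b6, and 5 were more than 2-fold apart there: 1 higher in replicate 1 and 4 in replicate 2. The background there was 9.71% of the 24341 genes compared, with 3.45% higher in replicate 1 and 6.26% in replicate 2. Starting amount, depth and the share of snRNA counts move together between these libraries, and their part in the differences cannot be told apart.

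**Figure D4:**
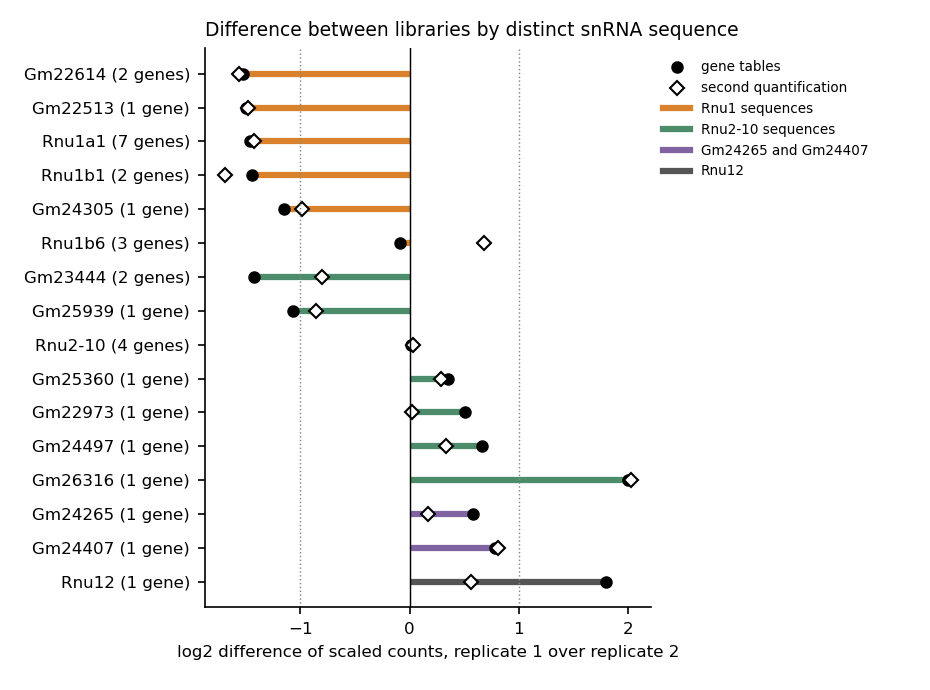
Log2 difference of scaled counts, replicate 1 over replicate 2, for the 16 distinct sequences with a mean of at least 10 counts, named by one of their genes with the number of genes that share the sequence. Filled circles are the gene tables, open diamonds the second quantification, and dotted lines a 2-fold difference in either direction; 5 of the 6 Rnu1 sequences lie at or below -1 in the gene tables, and the Rnu2-10 sequences lie on both sides of 0.

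Effective length, the number of positions at which a fragment could start, was the quantity that tied these levels to counts. In the gene tables it was 0 in both libraries for 1104 of the 1383 snRNA genes, or 79.8%, the longest of them 127 nucleotides, and such genes are listed at 0. The members were 141 to 191 nucleotides long, and 250 snRNA genes had at least 141 nucleotides, of which the 36 members were 14.4%. Effective lengths were 2.24 nucleotides in replicate 1 and 2.59 in replicate 2 for the 141-nucleotide pair, 3.78 and 4.39 for Rnu12, 6.53 and 7.56 for the 164-nucleotide U1 genes, and 15.1 and 17.3 for the 191-nucleotide U2 genes.

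Dividing by so few positions made each count weigh heavily. A count of 1 was worth 19.9 TPM in replicate 1 and 26.7 TPM in replicate 2 at 141 nucleotides, 6.81 and 9.15 TPM at 164 nucleotides, and 2.94 and 3.99 TPM at 191 nucleotides. The limit of 1 TPM was thus met by a gene with 1 count. In the second quantification the effective lengths of the same genes were 22.3 and 24.97 nucleotides at 141, 28.8 and 36.4 at 164, and 39.4 and 52.1 at 191. The 36 genes held 1.80% of TPM in replicate 1 and 3.52% in replicate 2 there, against 14.2% and 22.4% in the gene tables, although their share of counts was similar at 0.156% and 0.248%.

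**Figure D5:**
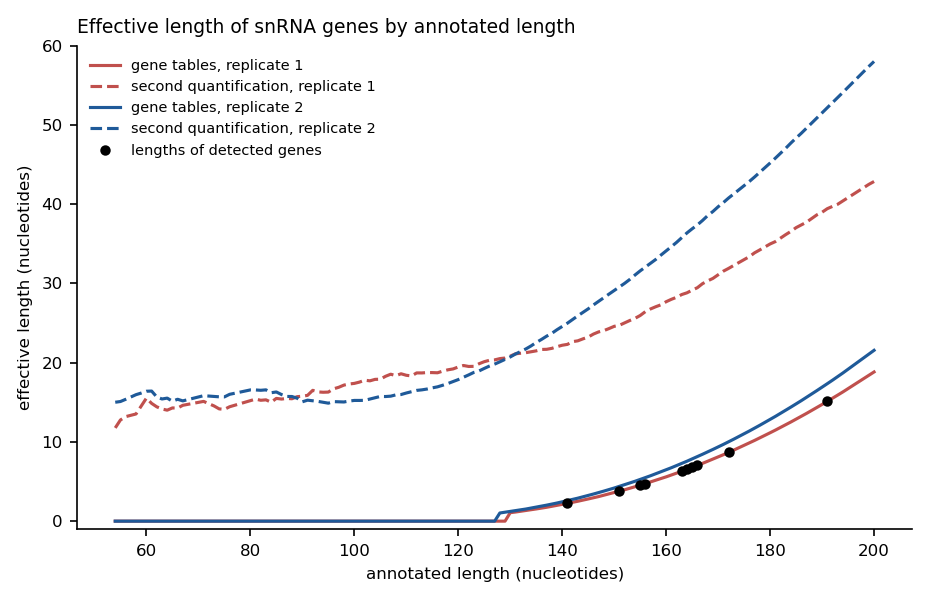
Effective length against annotated length, both in nucleotides, over the 1383 snRNA genes, in replicate 1 (red) and replicate 2 (blue), for the gene tables (solid) and the second quantification (dashed), with the lengths of the 36 detected genes as black points on the replicate 1 gene table line. The gene table lines lie at 0 up to 127 nucleotides and reach 15.1 and 17.3 at 191, while the second quantification never comes to 0.

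Rnu12 and the 141-nucleotide pair were the shortest members, and their counts differed by a larger factor between the quantifications than the sums of U1 and U2 did. Rnu12 had 50 and 8 counts in the gene tables in replicates 1 and 2, but 547 and 294 in the second quantification. The 141-nucleotide pair had 327 and 124 counts, but 856 and 543. For U1 the sums were 9805 and 16143 counts against 10459 and 22334, and for U2 they were 23132 and 18418 against 28530 and 27929. Large factors were not confined to the shortest members. Gm23238, at 164 nucleotides, had 1.14 and 1.44 counts in the gene tables and 132 and 7.99 in the second quantification. Its log2 difference was -0.61 in the gene tables and 3.57 in the second quantification.

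The 5 divergent genes rested on few counts. Gm24041 had 6 counts in replicate 1 and 11 in replicate 2, Gm22940 had 1 and 6, Gm25184 had 2 and 3.44, Gm25153 had 1 and 2, and Gm23887 had 2 and 1. In the second quantification Gm24041 had 222 and 199 counts, Gm23887 had 66 and 57, Gm22940 had 43 and 52, Gm25153 had 30 and 26, and Gm25184 had 5 and 11.0. All 5 lie within protein-coding genes on the same strand: Gm24041 in Tmem65, Gm22940 in Dpy19l4, Gm25153 in Bcar3 and Gm23887 in Stk38 are intronic, and Gm25184 overlaps an exon of Tpd52l2. These host genes had 9.95 to 96.4 TPM in replicate 1 and 13.0 to 95.5 TPM in replicate 2. The part of host gene reads in the counts of the divergent genes was not tested.

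Among the 31 other members, 9 lay within another gene, and none of these hosts stood above 4.25 TPM in either library. That value was Rdm1, a protein-coding gene with 4.25 TPM in replicate 1 and 2.72 TPM in replicate 2, which holds Gm23849 in an intron. D230017M19Rik, a long non-coding RNA gene that holds Gm25939, Gm23472 and Gm24497, had 0.49 and 0.55 TPM. The share of all snRNA genes that lie within another gene is not given here.

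The gap at the threshold in the gene tables was of the order of 1 count. Just inside the threshold, Gm23887 had 10.3 TPM in replicate 1, with 6.91 TPM in replicate 2, on 2 and 1 counts. Gm23238 had 7.73 and 13.1 TPM on 1.14 and 1.44 counts. Just outside it, Gm24924 had 0.12 and 60.8 TPM on 0.02 and 6.64 counts. Gm26244 had 0.05 and 58.9 TPM on 0.01 and 6.44 counts, and Gm22611 was listed at 0 and at 33.1 TPM. Gm24924 and Gm26244 are each 1 base from Rnu1a1. In the second quantification Gm24924 had 201 TPM in replicate 1 and 904 TPM in replicate 2, above many members, while Gm26244 had 1.03e-05 and 2.00 TPM.

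Of the 1347 snRNA genes outside the detected set, 19 had any count in the gene tables and 2 had counts in both libraries. The 36 members held 99.95% of all snRNA counts in replicate 1 and 99.94% in replicate 2 there, but 86.9% and 90.9% in the second quantification. All 36 also reached 1 TPM in both libraries in the second quantification, and so did 259 other snRNA genes, 219 of them with an effective length of 0 in the gene tables. Rnu5g, which encodes U5, is 116 nucleotides long and was listed at 0 in the gene tables, but had 32.2 and 56.4 TPM in the second quantification. Rnu6, Rnu6-ps2, Rnu7 and Rnu11 were listed at 0 in the gene tables as well. Rnu7 and Rnu6-ps2 were also at 0 in the second quantification, and Rnu6 was at 0.0703 TPM in replicate 1 and at 0 in replicate 2. Rnu11, which encodes U11 of the minor spliceosome, is 134 nucleotides long, had effective lengths of 1.43 and 1.65, and had 0 counts in both quantifications. The listing of these genes at 0 does not show that their RNAs were absent from the nuclei.

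The proteins that bind or make snRNAs were measured on ordinary messenger RNAs. Of 100 such genes in 8 lists, 90 were detected, against 23.6% of all annotated genes. Of the 98 with enough counts, 5 were more than 2-fold higher in replicate 1 and 1 in replicate 2, with a median log2 difference of -0.05. The shares over all genes were 3.47% and 1.68%, so the lists lay near the background. Snrnp70, which encodes a protein of the U1 particle, had 132 TPM in replicate 1, against 129 TPM in replicate 2. Its partners Snrpa and Snrpc had 20.3 and 16.0 TPM and 7.06 and 6.22 TPM. The 3 U1 protein genes lay between -0.10 and 0.31 on the log2 scale, against -1.47 for the summed U1 sequences.

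The lists covered the other particles as well. The 12 U2 protein genes had a median of 9.83 TPM in replicate 1 and 8.60 TPM in replicate 2, with Sf3b1, which encodes a branch point binding subunit, at 113 and 130 TPM. The 9 minor spliceosome protein genes had a median of 9.33 and 11.5 TPM, with a median log2 difference of -0.25. Rnu12 was at 1.80 in the gene tables, on 50 and 8 counts, and at 0.57, less than 2-fold, in the second quantification. The 7 Sm ring protein genes compared had a median log2 difference of 0.41, the 9 LSm ring genes of 0.06, the 16 tri-snRNP genes of -0.06, the 19 genes of snRNA transcription and 3′ end processing of -0.15 and the 23 compared genes of snRNP assembly of -0.02. Smn1, whose product assembles the Sm ring on snRNAs, was the gene more than 2-fold higher in replicate 2, with 7.66 and 16.8 TPM and a log2 difference of -1.17. It had 13.6 and 19.0 TPM in the second quantification, with a log2 difference of -0.30 there. Snrpn, an Sm protein gene known for its expression in brain, was listed at 0 in both libraries.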

How the data were processed

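Per the deposited text files, reads were mapped to mm10 with GENCODE M21; the programs are not given in the sources used here. For each library the authors deposited a gene table and a second transcript table. Expected counts in the gene tables and estimated counts in the second tables are the authors' estimates and need not be whole. The authors' deposited TPM sums to the same total in each table. Effective lengths and interval bounds, as deposited by the authors, are treated as a signal that is never negative. Entries naming no annotated gene were left out of totals: 1.18% of counts in replicate 1 and 0.405% in replicate 2.

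Shares were taken over annotated genes. Counts were rounded for the TMM factors of edgeR 4.0.16 and the size factors of DESeq2 1.42.0 (R 4.3.3), and log2(scaled count + 1) was compared between libraries for genes with a mean of 10 counts. The step was tested on simulated data for genes with high counts, with counting noise only, planted changes larger than 2-fold and known scale factors. That test does not cover members with few counts or counts divided over near-identical copies. Sequences came from the GENCODE M21 transcripts, and identity is edit distance (edlib 1.3.9.post1) over the longer length. Whether counting used strand is not stated in the labels, so members and the genes they overlap cannot be told apart with certainty. Alternatives were other thresholds, pseudocounts, filters, scalings, the second quantification and leaving out a replicate. Members, lists and alternatives were chosen with earlier results of these data known. Named genes were, by rule, members at the extremes of level, count, effective length or difference, all identical groups, the 3 snRNA genes nearest below the limit, and the 2 highest and the lowest gene of each protein list; the remaining members, Smn1, Rnu5g and the host genes were added after their values were seen.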

Additional observations from a re-analysis of the deposited data

How the results depend on the processing

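The number of detected snRNA genes was 36, between 29 and 37 with a limit of 0.1 TPM, 5 TPM or 10 expected counts, 43 without replicate 1 and 46 without replicate 2. It was 276 by the deposited posterior mean TPM and 295 by the second quantification. The 276 lie near the 279 snRNA genes whose effective length was not 0 in both libraries of the gene tables. Since 1328 of the 1383 had 0 counts in both libraries there, most of the 276 had no count, and that number is not one of detected genes. The share of TPM held by the 36 genes was 18.3%, 16.2% by the posterior mean and 2.66% by the second quantification, and 14.2% to 22.4% leaving out a replicate. Their share of counts was 0.236%, 0.202% by the second quantification, and 0.174% to 0.299% leaving out a replicate. The count of members more than 2-fold apart was 18 of 30, and 14 to 22 of the 24 to 36 members compared over the 8 other settings, against 2.03% to 9.71% of all genes. Counting distinct sequences, an alternative added after the data had been seen, gave 9 of 16. The median log2 difference of members was -1.11, at -1.29 with a mean of 50 counts, -0.79 on log2(TPM + 1) and -0.17 by the second quantification. The filter of 50 counts left 24 members, and the cause of these shifts was not tested. The median of all genes stayed within 0.09 of 0 in each scaling. All 36 members reached 1 TPM in the second quantification, 35 at 5 TPM there, and 36 leaving out either replicate. The summed U1 difference was between -1.47 and -1.42 in every scaling and quantification tried, and that of U2 between -0.42 and -0.30.

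No paired analysis was possible because the series holds 1 group. With 2 libraries no difference between them has a test. In the gene tables Rnu12 in replicate 2, Gm23238 and the 5 divergent genes rest on 11 counts or fewer. The second quantification of the same libraries gave Rnu12 294 counts in replicate 2, and the divergent genes between 5 and 222 counts.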
